A study of Rattus norvegicus with 6 samples.

Results

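The genes described here are transcriptional targets of p53 and the Gadd45 family, measured in rat myocardium after coronary occlusion. They were chosen by name, with earlier results of these data known, as Mdm2, Cdkn1a, Gadd45a, Gadd45b, Gadd45g, Bbc3, Pmaip1, Sesn2 and Btg2. Rows for 8 of these 9 genes were found among the 32623 genes of the expression table by gene symbol, and Bbc3 was not analysed here. All 8 passed the filter on low expression, a mean of at least 0.5 FPKM (counts set relative to the length of the gene and the depth of the library) over the 6 samples, together with 13964 genes in all.

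Total RNA was sequenced from myocardial tissue of wild-type (WT) male rats, with 3 samples from sham rats and 3 from ischemia rats, all labelled 30 min. For the model, rats were anesthetized, ventilated and opened by left thoracotomy, and ligation of the LAD (left anterior descending) coronary artery over a tube closed the vessel, as read from the electrocardiogram. For sham rats the study names a sham operation without listing its steps, and no ligation is described. Strain, age and the sampled part of the heart are not given in the labels. The labels do not state that each sample is a separate animal, so p-values measure the spread between these samples, which may be technical in part.

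p53 is a transcription factor that is stabilized when DNA is damaged or a cell is otherwise stressed, and it then turns on genes that stop the cell cycle, repair DNA or start apoptosis. Mdm2 is both its target and the ubiquitin ligase that degrades it, which closes a negative feedback loop. The Gadd45 proteins are small stress sensors that bind cell cycle and MAP kinase proteins, and many genes of this group are also induced by other stress pathways without p53. In the adult heart, where cardiomyocytes rarely divide, these genes are known as early stress-response genes.

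The upstream sequences of the 5 genes on which the results below turn are shown because their known stress regulators act on promoters. They are the 250 bases before the transcription start in the RefSeq annotation of build GRCr8, printed 5′ to 3′ on the strand of the gene, with a searched motif in capitals where one was found. The windows are chr20:7150682-7150931 on the plus strand for Cdkn1a, chr13:48087691-48087940 on the minus strand for Btg2, chr4:97486800-97487049 on the minus strand for Gadd45a, chr7:9430719-9430968 on the minus strand for Gadd45b and chr17:13530352-13530601 on the minus strand for Gadd45g.
Cdkn1a: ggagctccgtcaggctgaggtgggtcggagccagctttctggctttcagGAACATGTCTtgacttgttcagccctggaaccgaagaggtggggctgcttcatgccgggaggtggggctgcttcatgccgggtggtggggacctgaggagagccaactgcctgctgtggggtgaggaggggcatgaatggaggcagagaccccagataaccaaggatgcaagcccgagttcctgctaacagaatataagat
Btg2: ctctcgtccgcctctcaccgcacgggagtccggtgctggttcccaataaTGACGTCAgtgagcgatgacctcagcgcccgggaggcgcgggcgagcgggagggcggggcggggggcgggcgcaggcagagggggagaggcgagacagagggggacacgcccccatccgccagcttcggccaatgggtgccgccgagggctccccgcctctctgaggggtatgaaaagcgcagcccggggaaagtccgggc
Gadd45a: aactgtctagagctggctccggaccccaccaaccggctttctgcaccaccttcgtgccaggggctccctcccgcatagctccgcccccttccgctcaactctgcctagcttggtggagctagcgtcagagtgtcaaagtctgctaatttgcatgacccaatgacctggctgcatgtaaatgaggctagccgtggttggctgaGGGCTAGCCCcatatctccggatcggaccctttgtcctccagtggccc
Gadd45b: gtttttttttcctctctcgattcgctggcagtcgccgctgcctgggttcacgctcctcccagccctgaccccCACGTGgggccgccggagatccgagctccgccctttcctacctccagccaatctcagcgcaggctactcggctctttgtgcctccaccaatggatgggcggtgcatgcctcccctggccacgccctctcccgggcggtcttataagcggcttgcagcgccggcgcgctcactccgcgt
Gadd45g: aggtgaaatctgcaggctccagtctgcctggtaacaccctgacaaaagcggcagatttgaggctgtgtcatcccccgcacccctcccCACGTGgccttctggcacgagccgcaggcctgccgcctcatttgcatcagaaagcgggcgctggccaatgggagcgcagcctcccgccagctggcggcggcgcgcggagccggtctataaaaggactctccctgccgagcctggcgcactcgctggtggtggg
The capitals mark a p53 half-site in Cdkn1a and Gadd45a, the cAMP response element (CRE) TGACGTCA in Btg2, and the Myc E-box CACGTG in Gadd45b and Gadd45g.

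Motifs were searched on both strands in windows of 300 bases, the 250 upstream bases and the first 50 of the transcript, and all 8 genes had such a window. The p53 half-site was found in Cdkn1a, at positions -201 to -192 relative to the start, and in Gadd45a at -48 to -39, while 7.98% of all 33469 promoter windows held one. The CRE in Btg2 lay at -201 to -194 and occurred in 1.83% of windows. The E-box lay at -178 to -173 in Gadd45b and at -163 to -158 in Gadd45g, and 6.42% of windows held it. The hypoxia-inducible factor core ACGTG, which lies within that E-box, matched in these same genes and in 19.25% of windows. An NF-kB consensus was present in Pmaip1 and in 5.02% of windows. The AP-1 motif TGANTCA (7.33% of windows) and the amino acid response motif TGATGNAAT (1.09%) were not present in the windows of the 8 genes. A match describes letters and is no evidence of binding, and no match says only that these letters are not in this window.

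The 6 libraries held between 68529126 and 79591989 counts. Beyond the grouping, the samples differed in several marker sums. Atrial markers (Myl7, Myl4, Sln and Nppa) summed to 48341 and 39203 FPKM in sham replicates 1 and 3 but to 214.9 in sham replicate 2, and to 9610, 2078 and 1279 FPKM in the ischemia replicates in order. The labels describe male rats, and counts over 3 Y-linked genes were 26 in sham replicate 1 and 1772 to 4318 elsewhere. Cardiomyocyte markers (6 of 6 detected) summed to 23778 to 30313 FPKM in sham and to 16050, 8139 and 14845 FPKM in ischemia, and none of these 6 passed the test, though all had log2 fold changes below 0 (median -1.15) and 3 (Myh6, Actc1 and Ryr2) were lower at an unadjusted p under 0.05 with groups that did not overlap. Neutrophil and monocyte markers summed to 17.8 to 25.6 FPKM in sham and to 527.3, 3902 and 537.4 FPKM in ischemia, and 9 of the 10 tested among 12 listed rose. The sums for endothelial markers were 109.4 to 151.9 FPKM in sham and 112.1 to 149.6 in ischemia, those for fibroblast markers 302.2 to 978.7 and 166.8 to 408.3, and those for lymphocyte markers 7.57 to 11.3 and 12.0 to 17.2.

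Cdkn1a, Gadd45a and Btg2 rose in ischemic myocardium, between 3.51-fold and 6.00-fold in mean FPKM. Gadd45b, Gadd45g, Pmaip1, Sesn2 and Mdm2 had higher means in ischemia but did not pass the test. The test was the quasi-likelihood test of edgeR on raw counts with a Benjamini-Hochberg adjustment across the 13964 tested genes and a threshold of 0.05. Because the genes were chosen with earlier results known, the shares of all tested genes set beside their counts describe and do not test them. By this edgeR test, 3 of the 8 genes were called higher, against 5.18% of all tested genes. None was called lower, against 1.53% of all tested genes, and none was lower at an unadjusted p under 0.05, with DESeq2 or with limma. The neutrophil and monocyte marker sum moved with the same groups, and its part in these changes was not tested. In bulk tissue, fewer cells of a type and less RNA per cell cannot be told apart.

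**Figure D1:**
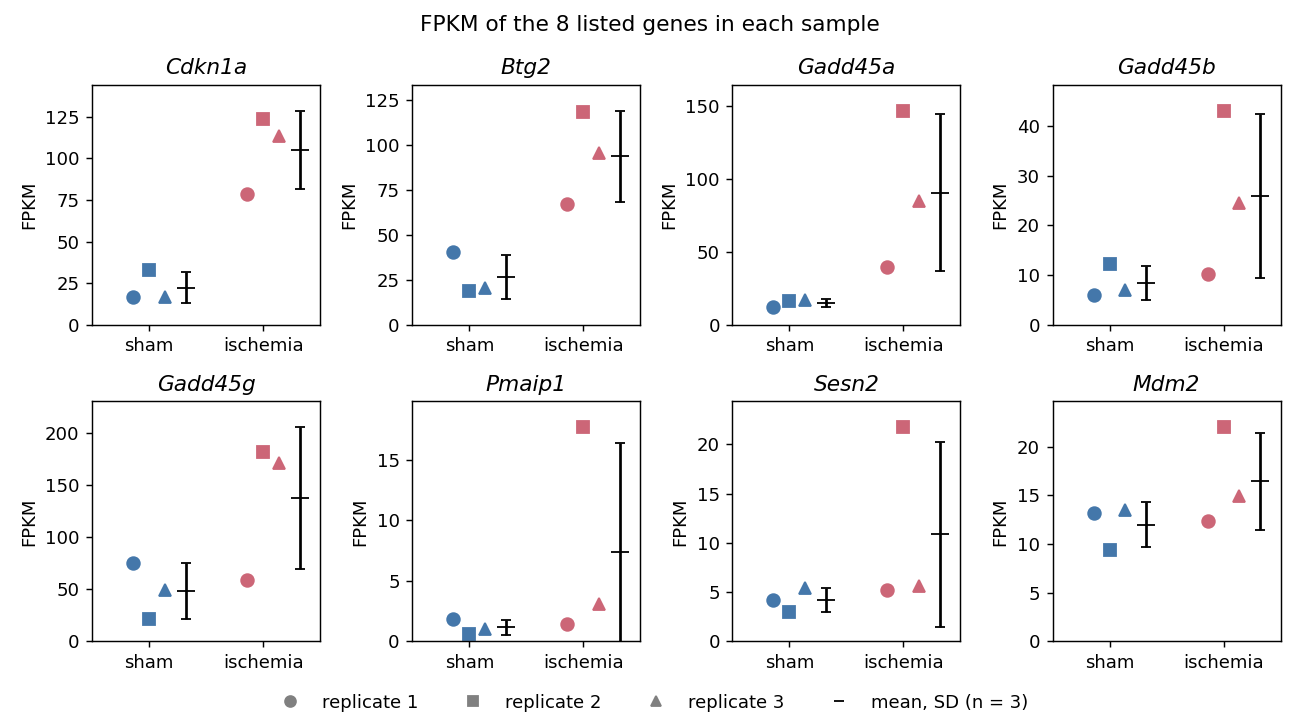
FPKM (vertical axes, linear from 0) of each gene in the 3 sham (blue) and 3 ischemia (red) samples, with marker shape for the replicate number and black bars for mean and SD (n = 3; the lower bar of Pmaip1 is cut at 0). Ischemia lay above every sham sample in Cdkn1a, Btg2 and Gadd45a, and ischemia replicate 2 held the highest value of all 8 genes.

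Cdkn1a encodes p21, the inhibitor of cyclin-dependent kinases that carries much of the p53 cell cycle arrest. Its FPKM was 16.9, 33.0 and 16.7 in sham replicates 1, 2 and 3 and 78.6, 123.5 and 113.3 in ischemia replicates 1, 2 and 3. The lowest ischemia sample lay above the highest sham sample. The counts behind these values were 2362 to 5217 in sham and 12636 to 18065 in ischemia. Mean FPKM was 22.2 ± 9.37 in sham and 105.1 ± 23.5 in ischemia (SD, n = 3 each), a log2 fold change of 2.09 ± 0.42 (SE, edgeR adjusted p = 0.0445). The gene (ENSRNOG00000000521) is listed on chromosome 20 from 6351458 to 6358864, in a build that the sources used here do not name.

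Btg2 is an antiproliferative gene whose protein binds the deadenylase complex and shortens mRNA tails. It was measured at 40.7, 18.9 and 20.4 FPKM in the sham replicates and at 67.4, 118.2 and 95.4 FPKM in the ischemia replicates, in order. The groups did not overlap, and the highest sham value belonged to sham replicate 1. Counts were 3788 to 7939 in sham and 14232 to 22701 in ischemia. The means of 26.7 ± 12.2 and 93.6 ± 25.4 FPKM (SD, n = 3 each) gave a log2 fold change of 1.74 ± 0.34 (SE, edgeR adjusted p = 0.0430). Btg2 (ENSRNOG00000003300) is listed on chromosome 13 from 50913180 to 50916982.

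Gadd45a encodes the DNA damage-inducible member of its family that binds PCNA and p21. Its values were 12.1, 16.1 and 17.2 FPKM in sham and 39.9, 147.1 and 85.1 FPKM in ischemia. The sham samples lay close together, whereas the ischemia samples spread widely and all exceeded sham. The counts were 1142 to 1616 in sham and 4082 to 13694 in ischemia. Mean FPKM rose from 15.1 ± 2.71 to 90.7 ± 53.8 (SD, n = 3 each), which was the largest change among the called genes, with a log2 fold change of 2.46 ± 0.47 (SE, edgeR adjusted p = 0.0406). Gadd45a (ENSRNOG00000005615) is listed on chromosome 4 from 97782512 to 97784842.

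The 3 called genes were also the ones whose ischemia samples all exceeded their sham samples. Over all tested genes, 23.6% showed such a separation upward. The exact two-sided permutation test of mean FPKM gave p = 0.1 for Cdkn1a, Btg2 and Gadd45a, the smallest value that 3 against 3 samples allow. A criterion like that of the study, a log2 fold change above 2 with a p under 0.01, taken here as unadjusted, was met by Cdkn1a and Gadd45a, 2 of 8, against 3.31% of all tested genes. At an unadjusted p under 0.05, 6 of 8 genes were higher, against 18.2% of all tested genes.

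These calls rested on all but 1 of the samples. Without sham replicate 1, sham replicate 2, sham replicate 3, ischemia replicate 2 or ischemia replicate 3, edgeR called 0 of the 8 genes, with 3 to 5 higher at an unadjusted p under 0.05, against 12.7% to 15.2% of all tested genes in those fits, and without 4 of these 5 samples, ischemia replicate 2 being the exception, it called no gene of the whole table. Without ischemia replicate 1, 6 of the 8 genes were called, against 10.7% of all tested genes called higher in that fit. The log2 fold change with 1 sample left out stayed between 1.87 and 2.65 for Cdkn1a, 1.55 and 2.10 for Btg2 and 2.0 and 2.79 for Gadd45a. DESeq2 called 5 of the 8 genes, adding Gadd45g and Pmaip1, against 14.8% of all tested genes called higher by it. With edgeR on total counts alone, without further scaling, Btg2 missed the threshold (adjusted p = 0.0512), and without the filter on low expression Cdkn1a did (adjusted p = 0.0529).

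**Figure D2:**
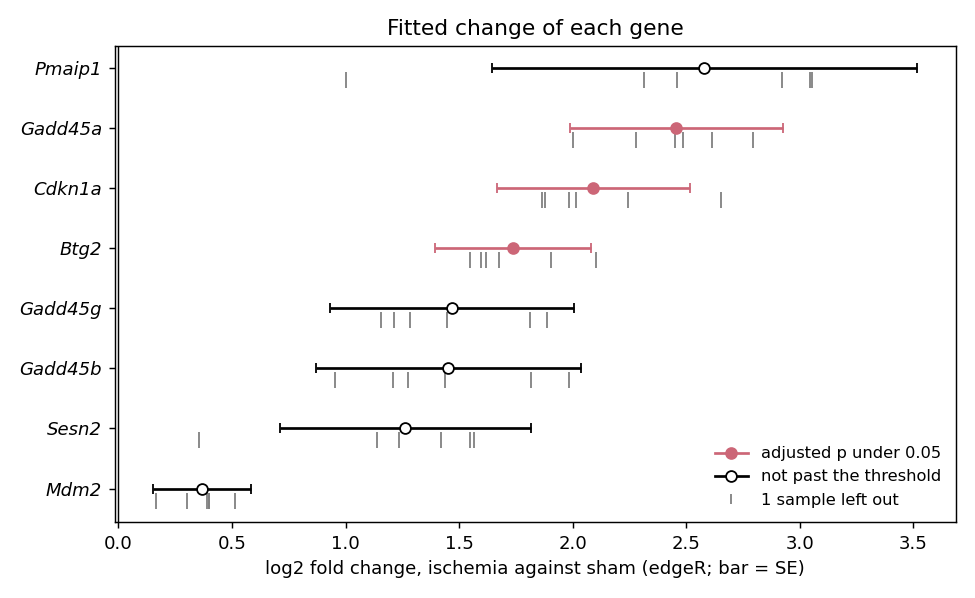
Log2 fold change of ischemia against sham (horizontal axis) for each gene, with the edgeR estimate as a circle and its SE as a bar, filled red where the adjusted p was under 0.05, and gray ticks for the fits with 1 sample left out. All estimates lay above 0, and those of Pmaip1 and Sesn2 fell to 1.0 and 0.36 without ischemia replicate 2.

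Gadd45b is the family member known for its induction by NF-kB and TGF-beta signals. It was listed at 5.92, 12.3 and 7.02 FPKM in sham and at 10.1, 43.1 and 24.4 FPKM in ischemia. Ischemia replicate 1 lay below sham replicate 2, so the groups overlapped. The means of 8.40 ± 3.39 and 25.9 ± 16.5 FPKM (SD, n = 3 each) corresponded to a log2 fold change of 1.45 ± 0.58 (SE, edgeR adjusted p = 0.145). It was 0.95 without ischemia replicate 2, and without ischemia replicate 1 the gene passed (1.82, edgeR adjusted p = 0.0498).

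Gadd45g, known for its induction by cytokines and during differentiation, had the highest mean FPKM of the 8 genes in both groups, although Cdkn1a lay above it in sham replicate 2 and ischemia replicate 1 and Btg2 in ischemia replicate 1. Its FPKM was 74.8, 21.1 and 49.0 in sham and 59.2, 182.0 and 171.4 in ischemia. Ischemia replicate 1 lay within the sham range, and the other ischemia samples lay above it. Means were 48.3 ± 26.8 and 137.6 ± 68.0 FPKM (SD, n = 3 each), with a log2 fold change of 1.47 ± 0.54 (SE, edgeR adjusted p = 0.124). DESeq2 gave an adjusted p of 0.0355, and without ischemia replicate 1 the log2 fold change was 1.81 (edgeR adjusted p = 0.0439).

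Summed over the 3 Gadd45 genes, FPKM was 92.8, 49.5 and 73.3 in sham and 109.3, 372.3 and 281.0 in ischemia. This put the sum above all sham samples in every ischemia sample, though ischemia replicate 1 was nearest to sham. Gadd45a took 13.0%, 32.5% and 23.5% of this sum in sham and 36.5%, 39.5% and 30.3% in ischemia. Ranges of that share overlapped, since sham replicate 2 lay above ischemia replicate 3. Gadd45g took 42.7% to 80.6% in sham and 48.9% to 61.0% in ischemia, and Gadd45b 6.38% to 24.8% and 8.70% to 11.6%.

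Whether the paralogs changed unequally was tested on the difference of their log2(FPKM + 0.1) values within each sample, by exact permutation over samples with adjustment over the 3 pairs. Gadd45a exceeded Gadd45b by 0.90 ± 0.46 in sham and by 1.84 ± 0.11 in ischemia (SD, n = 3 each), a difference of 0.95 (exact p = 0.1, adjusted 0.3). Every ischemia sample lay above every sham sample for this pair, and 0.1 is the smallest p the design allows. Gadd45a minus Gadd45g moved by 0.88 (exact p = 0.3, adjusted 0.45) and Gadd45b minus Gadd45g by -0.07 (exact p = 0.9, adjusted 0.9). No pair passed the threshold, which with 3 samples a group no pair could do, so an unequal change was not resolved. The difference of Gadd45a and Gadd45g was 0.32 without sham replicate 1 and 1.43 without sham replicate 2. That of Gadd45b and Gadd45g was 0.74 without sham replicate 2 and 0.10 without ischemia replicate 3.

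**Figure D3:**
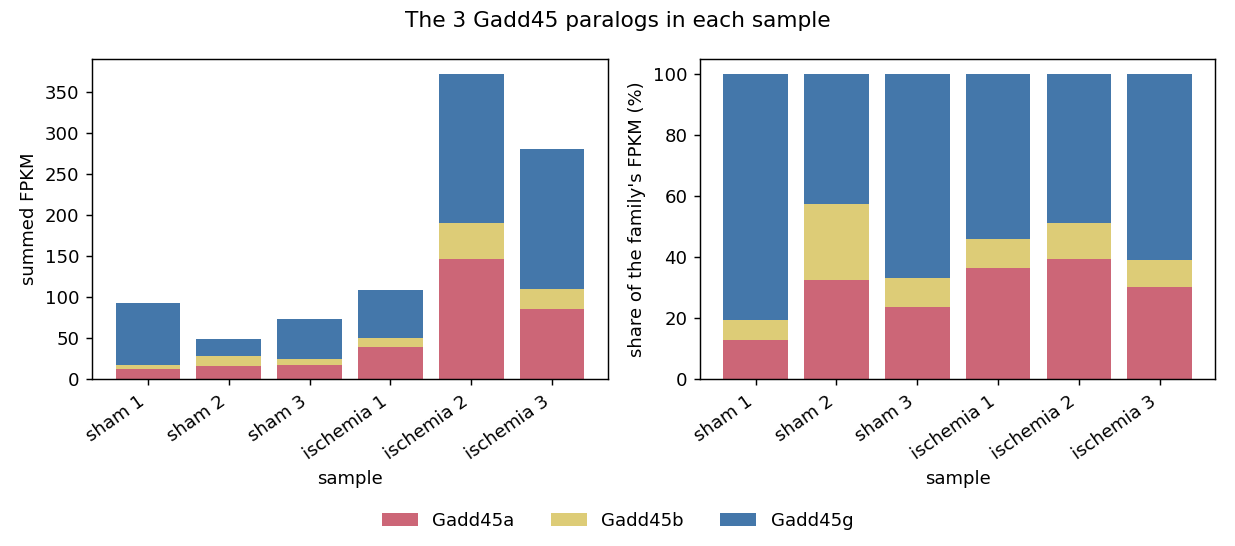
Stacked bars of the 3 Gadd45 genes in each sample, as summed FPKM (left, from 0) and as the share of that sum in percent (right). The sum ran from 49.5 to 92.8 in sham and from 109.3 to 372.3 in ischemia, and Gadd45g was the largest share in every sample.

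Pmaip1 encodes Noxa, a BH3-only protein that binds MCL1 and promotes apoptosis. Its FPKM was 1.85, 0.586 and 0.997 in sham and 1.45, 17.7 and 3.10 in ischemia. One ischemia sample, replicate 2, stood far above the rest, and ischemia replicate 1 lay below sham replicate 1. The means of 1.15 ± 0.65 and 7.43 ± 8.96 FPKM (SD, n = 3 each) gave a log2 fold change of 2.58 ± 0.94 (SE, edgeR adjusted p = 0.122). It was the largest fitted change of the 8 genes, and without ischemia replicate 2 it was 1.0 (edgeR adjusted p = 0.298). Without ischemia replicate 1 the gene passed, at 3.05 (edgeR adjusted p = 0.0457).

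Sesn2 encodes a sestrin, a leucine sensor that restrains mTORC1 through GATOR2. Its sham values were 4.22, 2.95 and 5.37 FPKM and ischemia values 5.21, 21.8 and 5.61 FPKM. Again ischemia replicate 2 stood apart, while ischemia replicates 1 and 3 lay near the top of the sham range. The log2 fold change was 1.26 ± 0.55 (SE, edgeR adjusted p = 0.168), from means of 4.18 ± 1.21 and 10.9 ± 9.44 FPKM (SD, n = 3 each), and it was 0.36 without ischemia replicate 2. The neutrophil and monocyte marker sum was also highest in ischemia replicate 2, at 3902 FPKM against 527.3 and 537.4, and its part in the Sesn2 and Pmaip1 values was not tested.

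Mdm2 had the smallest fitted change of the 8 genes. Its FPKM was 13.2, 9.38 and 13.5 in sham and 12.4, 22.0 and 14.9 in ischemia. Ischemia replicate 1 lay within the sham range. Means were 12.0 ± 2.28 and 16.5 ± 4.98 FPKM (SD, n = 3 each), with a log2 fold change of 0.37 ± 0.22 (SE, edgeR adjusted p = 0.271) that was 0.16 without ischemia replicate 2.

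The order of levels per length in sham ran from Gadd45g (48.3 FPKM) through Btg2, Cdkn1a, Gadd45a, Mdm2, Gadd45b and Sesn2 to Pmaip1 (1.15 FPKM). Neighbours in this order had overlapping sample ranges except Gadd45b above Sesn2 and Sesn2 above Pmaip1. In ischemia the order was Gadd45g (137.6 FPKM), Cdkn1a, Btg2, Gadd45a, Gadd45b, Mdm2, Sesn2 and Pmaip1 (7.43 FPKM), and all neighbours overlapped.

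Within ischemia, replicate 1 was the lowest sample for all 8 genes on log2 CPM, while replicate 2 was the highest for 6 of them and replicate 3 for Cdkn1a and Gadd45g. The mean over the genes of log2 CPM (counts relative to library size), centred on the mean of each gene, was -0.68, -0.77 and -0.88 in sham and -0.03, 1.54 and 0.83 in ischemia replicates 1, 2 and 3. By this mean, ischemia replicate 1 lay nearest to sham and replicate 2 farthest. All 8 log2 fold changes were above 0 with a median of 1.60, where 6968 of 13964 tested genes were above 0 and the median over all of them was -0.0015.

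**Figure D4:**
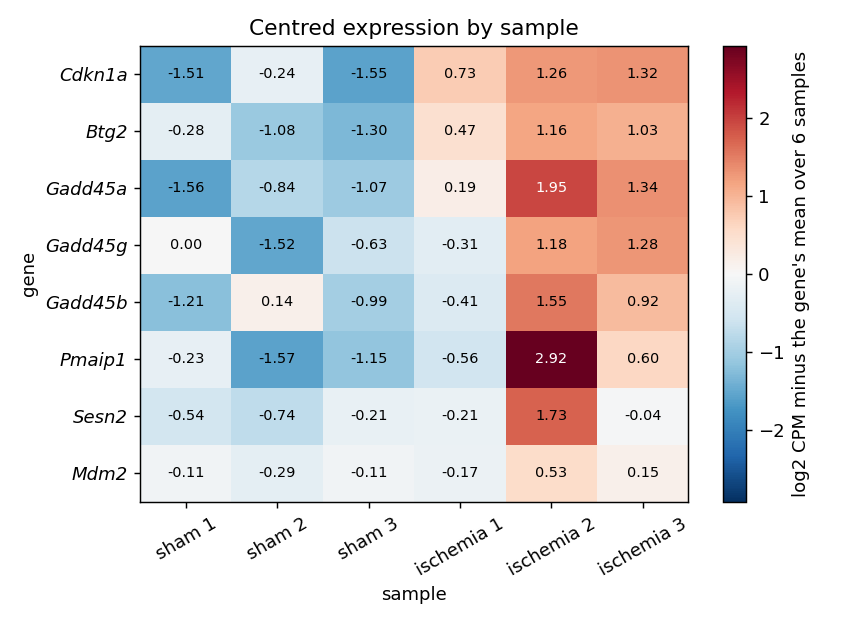
Log2 CPM of each gene (rows) in each sample (columns) minus its mean over the 6 samples, printed in each cell and coloured from blue (below) to red (above). Ischemia replicate 2 held the highest value in 6 of the rows, and ischemia replicate 1 was below the mean in Gadd45g, Gadd45b, Pmaip1, Sesn2 and Mdm2.

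Because the sham samples differed in atrial markers, folds of mean FPKM were also taken on each side of a division at 500 FPKM of Myl7, which was chosen after seeing the data. Sham and ischemia still differed in Myl7 on each side, at 6530 and 3541 against 764.4 FPKM above it and at 116.9 against 10 and 12.3 FPKM below it. Among the samples above it (sham replicates 1 and 3, ischemia replicate 1) the fold was 4.68 for Cdkn1a, 2.72 for Gadd45a and 2.21 for Btg2. Among those below it (sham replicate 2, ischemia replicates 2 and 3) it was 3.59, 7.23 and 5.64. With 1 sample in a group on each side, these folds carry no test, and group and atrial content cannot be told apart in them. Gadd45g had folds of 0.96 and 8.36, Pmaip1 of 1.01 and 17.8, Sesn2 of 1.09 and 4.63, Gadd45b of 1.57 and 2.75, and Mdm2 of 0.93 and 1.97.

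For each of the 8 genes, the tested gene with the most similar centred log2 CPM over the 6 samples was found by the root mean square difference. Cdkn1a was nearest to Snora68 (0.18), Btg2 to Hvcn1 (0.18), Gadd45a to Dok2 (0.13), Gadd45b to Vdr (0.18) and Gadd45g to SNORD29 (0.17). Pmaip1 was nearest to Atf3 (0.31), Sesn2 to Ell2 (0.12) and Mdm2 to Smad2 (0.03). The nearest other gene of the 8 lay at distances from 0.48 between Cdkn1a and Gadd45a to 0.78 between Pmaip1 and Sesn2. It was sought among far fewer genes, so a larger distance does not show whether the 8 moved together. These distances also depend on the spread of the gene itself, a root mean square of 0.27 for Mdm2 and 1.48 for Pmaip1.

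Further genes of the pathway were counted in 7 lists. Of 116 genes listed, 107 were found and 101 tested, and 11 of these rose, where 5.18% of all tested genes did. None of the 101 was called lower by edgeR. At an unadjusted p under 0.05, 23 were higher and 12 lower, against 18.2% and 14.2% of all tested genes. DESeq2 called 20 higher and 9 lower, against 14.8% and 12.5%. The median log2 fold change of the 101 genes was 0.12, and 55 were above 0. Without sham replicate 1, sham replicate 2, sham replicate 3 or ischemia replicate 3, edgeR called 0 of them higher. It called 7 of them higher without ischemia replicate 2, where 462 of all 13964 tested genes were called higher. In the fits that called none, 16 to 22 of the 101 were higher at an unadjusted p under 0.05, where 12.7% to 15.2% of all tested genes were.

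Of 25 tested other p53 targets, 4 rose, against 5.18% of all tested genes. Among them were the stress kinase gene Plk3 (log2 fold change 2.26 ± 0.42, edgeR adjusted p = 0.0387), the nuclease gene Aen (1.31 ± 0.25, adjusted p = 0.0394) and the pore-forming apoptosis gene Bax (1.22 ± 0.20, adjusted p = 0.0351). The list had a median of 0.12, with 13 of 25 genes above 0. At an unadjusted p under 0.05, 6 of the 25 were higher and 4 lower, against 18.2% and 14.2% of all tested genes. Gdf15, a secreted stress cytokine gene, had a log2 fold change of 2.24 (edgeR adjusted p = 0.125), with 1.60, 11.0 and 1.74 FPKM in ischemia replicates 1, 2 and 3 against 0.501 to 1.33 in sham. At the low end of the list, Ddb2, a DNA damage recognition gene, had one of -1.36 (edgeR adjusted p = 0.0642). Sesn1, Perp and Rrm2b, chosen after their values were seen as the other targets lower at an unadjusted p under 0.05, had log2 fold changes of -1.10, -0.84 and -0.79 without passing.

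Of 10 tested regulators of p53, none passed edgeR's adjusted threshold, against 5.18% of all tested genes called higher and 1.53% called lower. None of the 10 passed an unadjusted p under 0.05 either, against 18.2% higher and 14.2% lower. Their log2 fold changes ran from -0.46 for the DNA-dependent kinase gene Prkdc to 0.33 for the deubiquitinase gene Usp7, with a median of 0.05. Among 9 tested paralogs of the 8 genes and related inhibitors, Ddit4, an mTORC1 inhibitor, rose (log2 fold change 1.48 ± 0.24, edgeR adjusted p = 0.0327), 1 of 9 against 5.18% of all tested genes. At an unadjusted p under 0.05, 3 of the 9 were higher and 1 was lower, against 18.2% and 14.2% of all tested genes. Btg1, the closest relative of Btg2, had a log2 fold change of 1.60 (edgeR adjusted p = 0.109) and Cdkn1c, a relative of Cdkn1a, one of -1.40 (edgeR adjusted p = 0.176).

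Partners of Pmaip1 in apoptosis numbered 14 tested genes, of which 4 rose, against 5.18% of all tested genes. These were the survival genes Bcl2a1 (log2 fold change 3.87 ± 0.76, edgeR adjusted p = 0.0429) and Bcl2l1 (1.51 ± 0.26, adjusted p = 0.0364) and the death-promoting genes Bid (2.54 ± 0.51, adjusted p = 0.0442) and Bak1 (0.96 ± 0.17, adjusted p = 0.0372). At an unadjusted p under 0.05, 4 of the 14 were higher and 2 lower, against 18.2% and 14.2% of all tested genes. The 2 lower, named after their values were seen, were the survival gene Bcl2 (log2 fold change -1.05) and Cycs (-0.87). In both, every ischemia sample lay below every sham sample, but neither passed the adjusted threshold. The median of the list was 0.01, and its lowest gene was Bmf at -1.15 (edgeR adjusted p = 0.156). Bcl2a1 is also abundant in neutrophils, and the neutrophil and monocyte markers rose in the same samples, whose part in its change was not tested.

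Of the 12 tested cell cycle partners of Cdkn1a and Gadd45a, none passed edgeR's adjusted threshold, with 2 higher and 1 lower at an unadjusted p under 0.05, against 18.2% and 14.2% of all tested genes. Their log2 fold changes ran from -0.48 for the cyclin gene Ccnd3 to 0.86 for Pcna, the replication clamp (edgeR adjusted p = 0.0767). Of 15 tested kinase and GATOR partners of the Gadd45 proteins and Sesn2, none passed either, with 1 higher and 4 lower at an unadjusted p under 0.05, against the same shares of all tested genes. The ends were Map2k6, a p38 kinase kinase gene, at -1.58 (edgeR adjusted p = 0.0586) and Map2k3 at 0.88 (edgeR adjusted p = 0.204).

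Transcription and stress factors known to act on these genes without p53 included 16 tested genes, of which Myc (log2 fold change 4.29 ± 0.35, edgeR adjusted p = 0.0246) and Cebpb (2.73 ± 0.42, adjusted p = 0.0303) rose, 2 of 16 against 5.18% of all tested genes. At an unadjusted p under 0.05, 7 of the 16 were higher and 0 lower, against 18.2% and 14.2% of all tested genes. The list had a median of 0.61, with 14 of 16 genes above 0. Trib3, a target of the ATF4 stress response, had a log2 fold change of 3.27 (edgeR adjusted p = 0.0952), with 2.51, 20.8 and 1.28 FPKM in ischemia replicates 1, 2 and 3 against 0.614 to 0.878 in sham. The low end of the list was Foxo1, a forkhead factor gene, at -0.56 (edgeR adjusted p = 0.229).

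**Figure D5:**
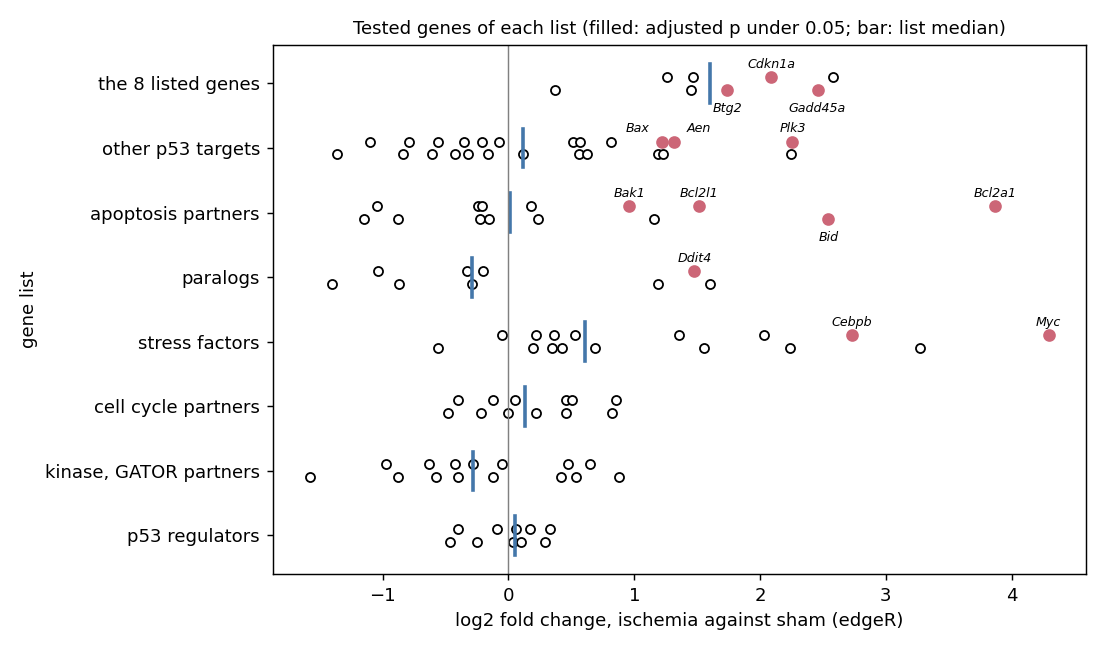
Log2 fold change of ischemia against sham (horizontal axis) for the tested genes of the 8 named genes and of the 7 other lists (rows; 1 other p53 target is not drawn, though its list's median includes it), filled red and named where the edgeR adjusted p was under 0.05, with a blue bar at the list median and vertical offsets for legibility only. The 8 genes had a median of 1.60, and the medians of the other lists lay between -0.29 and 0.61.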

How the data were processed

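The authors deposited 1 table with raw counts and FPKM values per gene for each of 3 sham and 3 ischemia samples. The deposited counts were whole numbers, not normalized, and the deposited FPKM had been scaled for gene length and library size, a value of 0.0001 standing for no reads. STAR and HTSeq are named in the submitters' processing notes, and their versions, the counting settings and the genome build are not given in the sources used here. Reads shared by similar genes may have been split or lost.

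The 13964 of 32623 genes whose FPKM averaged 0.5 or more were tested with edgeR (4.0.16) on counts, with trimmed mean of M-values scaling and no covariate, two-sided, and Benjamini-Hochberg adjustment over all tested genes at 0.05. SE were derived from the F statistic. Alternatives were median-ratio scaling, total counts only, no filter, a mean FPKM of at least 5, DESeq2 (1.42.0), limma (3.58.1) on log2(FPKM + 0.1) or log2(FPKM + 1), the replicate number as a block and each sample left out, 14 in all, and the division by Myl7 was added after seeing the data. On simulated counts, only the sign of recovered changes and the median size of raised ones were checked. Missed and false calls were not judged there, and the marker differences between these samples were not simulated. R 4.3.3, Python 3.11.15, pandas 2.3.3 and matplotlib 3.10.9 were used.

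The genes and lists were chosen with earlier results of these data known. Named genes were the 8 genes, every gene past the adjusted threshold in the other lists, and otherwise at most the 3 with the largest absolute log2 fold change and both ends of each list. To these, Sesn1, Perp, Rrm2b, Bcl2 and Cycs were added after their values were seen. Depth was 68529126 to 79591989 counts per sample. Promoter windows came from RefSeq (GRCr8) by gene symbol. Protein sequences were not used here, and 2 genes of the pathway are not reported here, though counts and medians of gene sets include them.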

Additional observations from a re-analysis of the deposited data

How the results depend on the processing

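All 111 alternative fits of the 8 genes across the 14 other settings gave a log2 fold change above 0, and 27 passed the adjusted threshold. The number of genes called higher (3) was 5 with DESeq2, 2 with total counts only, where Btg2 did not pass, and 2 with no filter, where Cdkn1a did not pass, and it ranged from 0 to 6 with 1 sample left out. Over all tested genes, 509 of 13964 were called higher with total counts only and 493 of 20541 with no filter. The number past a log2 fold change of 2 and an unadjusted p of 0.01 (2) ranged from 1 (without sham replicate 3 or ischemia replicate 3) to 3 with 1 sample left out. In the main fit 3.31% of all tested genes met this criterion, and that share was not taken in the other fits. With the replicate number as a block, 0 of the 8 genes were called higher, and 0 genes of the whole table passed. In that fit 4 of the 8 were higher at an unadjusted p under 0.05, against 13.1% of all tested genes. Same-numbered samples did not deviate together (correlations of deviations from -0.192 to -0.053 over 3 pairs), so the numbers were not taken to pair the samples. Of the other pathway genes, 20 were called higher with DESeq2 (14.8% of all tested genes), 0 with the block and 0 to 16 with 1 sample left out, against 11. The 16 were without ischemia replicate 1, where 10.7% of all tested genes were called higher. Called lower were 2 at a mean FPKM of at least 5 (291 of 8156 tested genes) and 9 with DESeq2 (12.5%). With limma at a pseudocount of 0.1 it was 1 (262 of 13964). With 1 sample left out 0 to 4 were called lower, against 0, the 4 without ischemia replicate 1 (1115 of 13964). The difference of Gadd45a minus Gadd45g (0.88) ranged from 0.32 to 1.43 with 1 sample left out. The difference of Gadd45b minus Gadd45g (-0.07) ranged from -0.69 to 0.74 with 1 sample left out and was 0.74 without sham replicate 2 and 0.10 without ischemia replicate 3. Within the samples of high atrial markers, the log2 ratio was -0.10 for Mdm2 and -0.064 for Gadd45g. The causes were not tested. Over all genes DESeq2 called 2071 higher and 1742 lower, against 723 and 214 with edgeR. With 3 samples a group, exact tests of single values cannot go below 0.1.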

Other observations

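The table itself assigned 7 of the 8 genes, all but Btg2, to a p53 signaling pathway of 71 genes. Of its 57 other tested genes, 7 were called higher and 0 lower by edgeR, against 5.18% and 1.53% of all tested genes, with a median log2 fold change of 0.17 and 32 genes above 0. This count was chosen after seeing the data.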
